A study of Mus musculus with 6 samples.

Results

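Integrins, and the adaptor proteins that tie them to actin, were compared between CD34hi and CD34lo mammary fibroblasts. The 39 genes were taken by symbol from the table of 27179 genes. They comprise 26 integrin subunits (18 α and 8 β) and 13 focal adhesion adaptors, and every one of the 39 was in the table. Bulk RNA-seq was performed on fibroblasts sorted as Lin–CD24–Pdgfrα+ cells, that is, without the endothelial, hematopoietic and epithelial antigens and with the receptor Pdgfrα. The cells came from pubertal FVB/N mammary glands at 6 weeks of age. Each of 3 pools of 2 mice was divided by surface CD34 into a CD34hi and a CD34lo library, so that there were 3 libraries per population. No treatment or transgene was named for either population, and a library averages over 2 animals.

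Integrins are receptors that consist of an α and a β chain and connect the extracellular matrix outside the cell to the actin cytoskeleton inside it. The α chain largely sets the ligand, and integrins are therefore grouped by what they bind, which may be collagens, laminins, proteins with an RGD (Arg-Gly-Asp) motif such as fibronectin, or counter-receptors on other cells. Talins and kindlins bind the β tail and switch the receptor on, and a focal adhesion of ILK, PINCH, parvin, vinculin, paxillin and FAK assembles behind it. In fibroblasts these receptors are known for sensing and reorganizing the collagen and fibronectin around the cell.

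The total count per library ranged from 28764779 to 52402410, at which 3 counts, the smallest amount a library was taken to show, corresponded to 0.0553 to 0.108 CPM (counts scaled to a TMM-adjusted library total of 1e+06 over the tested genes). This limit covers counting error only. The sorting marker *Cd34* separated the populations, with 2490, 2639 and 2584 CPM in the CD34hi libraries of pools 1, 2 and 3 and 477, 793 and 632 CPM in the CD34lo libraries. Fibroblast markers were high in both populations (28390 to 31860 summed CPM over 5 genes in CD34hi and 31500 to 36430 in CD34lo). Singly they differed: *Igfbp5* was higher in CD34hi (7483 to 9354 CPM against 608 to 1054 CPM), whereas *Lum*, *Pdgfra* and *Col1a2* were higher in CD34lo. *Dcn* did not pass the test. The 5 epithelial markers summed to 25.9 to 36.7 CPM in all libraries. In these bulk samples, fewer cells of a kind and less RNA per cell cannot be told apart. Since 3 libraries against 3 cannot give an exact permutation p below 0.1 for a single gene, the adjusted p-values given here come from edgeR's quasi-likelihood test fitted to all 15219 genes that passed the filter on low counts.

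Across the members, both receptors and adaptors differed between the populations in both directions. At an adjusted p-value under 0.05, 9 of the 39 members were higher in CD34hi fibroblasts (16.9% of all tested genes were) and 12 were higher in CD34lo fibroblasts (18.7% of all tested genes). A further 13 did not pass, and 5 had too few counts to be tested (*Itgad*, *Itgae*, *Itgam*, *Itgax* and *Fermt1*). The 21 called members were 53.8% of the 39 and 61.8% of the 34 tested, against 35.6% of all tested genes in either direction. Of the 26 integrin subunits 16 were called (61.5%, or 72.7% of the 22 tested), 6 higher in CD34hi and 10 higher in CD34lo. Of the 13 adaptors 5 were called, 3 higher in CD34hi and 2 higher in CD34lo. They were 38.5% of the adaptors and 41.7% of the 12 tested, near the share of all tested genes. A change of at least 1 on the log2 scale together with an adjusted p-value under 0.05 was found for 16 of the 39 members and for 19.6% of all tested genes. The median log2 fold change was -0.08 over the 34 tested members and -0.0064 over all tested genes. The 3 values of one population lay entirely above those of the other for 23 of the 34 tested members, 10 with CD34hi above and 13 with CD34lo above, whereas this held for 50.1% of all tested genes. *Itgb6* passed the filter only through the CD34hi libraries, and *Itga4* and *Itgb2* only through the CD34lo libraries, so that these 3 could hardly have been tested without differing. The 9 members higher in CD34hi include *Itgb6*, and the 12 higher in CD34lo include *Itga4* and *Itgb2*.

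**Figure D1:**
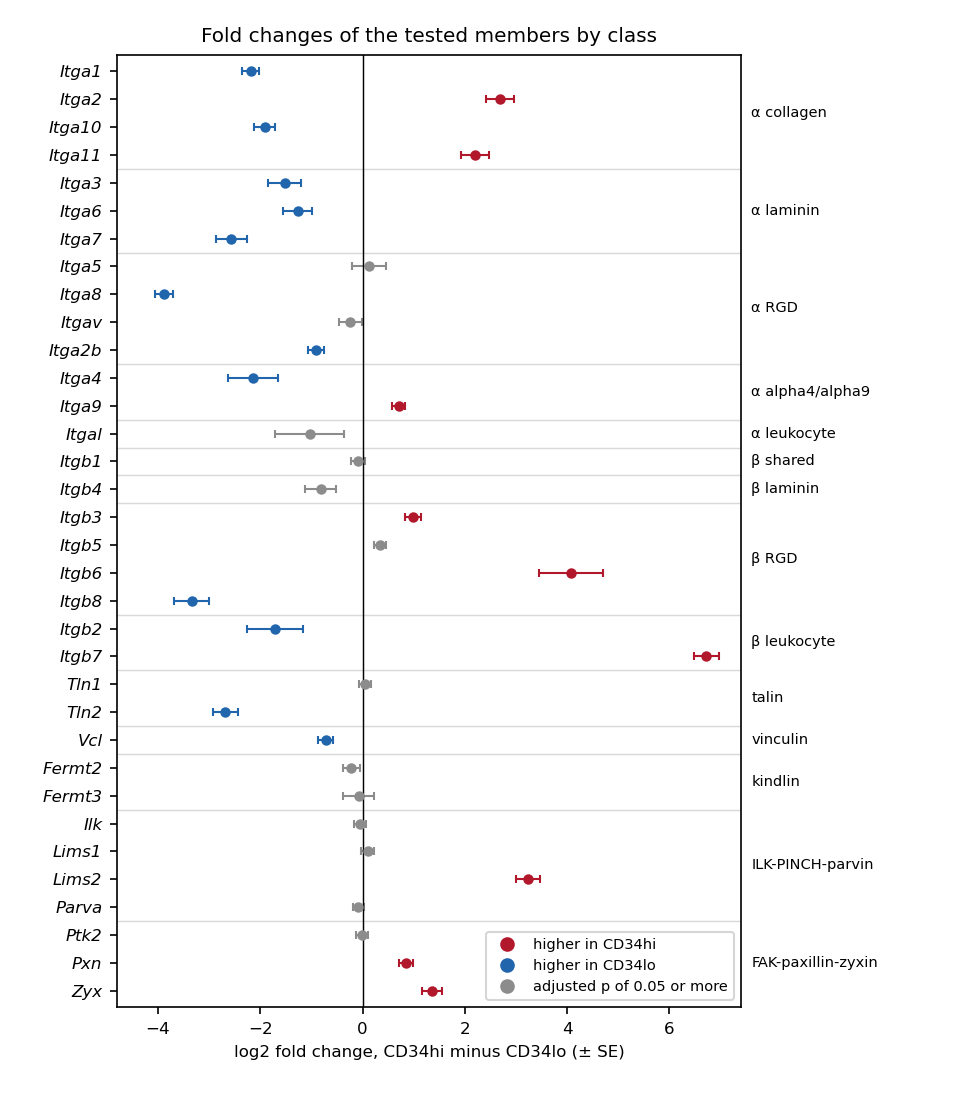
Log2 fold change (horizontal axis, CD34hi minus CD34lo) of each of the 34 tested members, grouped by subunit and ligand class or by adaptor module. Points are edgeR estimates and bars are ± SE. The 4 collagen-binding α subunits split into 2 on each side of 0, the 3 laminin-binding α subunits all lie to the left, and Itgb7 lies farthest to the right at 6.72.

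The collagen-binding α subunits differed in opposite directions between the populations, with *Itga11* the most abundant of them per length in both. There are 4 collagen-binding α subunits, each of which pairs with β1, and all 4 passed the test, with *Itga11* and *Itga2* higher in CD34hi and *Itga1* and *Itga10* higher in CD34lo fibroblasts. *Itga11* (chromosome 9, 62677855 to 62783979 in GRCm38) encodes the α chain of an integrin of fibroblasts that binds fibrillar collagens. Its normalized counts were 380, 369 and 538 CPM in CD34hi and 60.0, 129 and 91.0 CPM in CD34lo libraries of pools 1, 2 and 3. The lowest CD34hi library was thus well above the highest CD34lo library, although the values varied within each population. The log2 fold change was 2.2 (SE 0.28, adjusted p = 0.000401 from edgeR, higher in CD34hi in 3 of 3 pools), or 4.60-fold.

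*Itga2* (chromosome 13, 114835912 to 114932041), the α chain of a collagen receptor known from platelets and epithelium, had 26.9, 25.4 and 23.3 CPM in CD34hi and 2.71, 6.01 and 3.15 CPM in CD34lo libraries. The CD34hi libraries were alike, and all were far above the CD34lo libraries, with a log2 fold change of 2.69 (SE 0.28, adjusted p = 0.000128 from edgeR). *Itga1* (chromosome 13, 114958079 to 115101964), whose product binds the basement membrane collagen IV in particular, showed the opposite pattern, with 4.002, 3.59 and 4.57 CPM in CD34hi and 18.6, 15.5 and 21.4 CPM in CD34lo libraries. Here the CD34lo libraries were all higher, and the log2 fold change was -2.19 (SE 0.18, adjusted p = 3.22e-05 from edgeR). *Itga10* (chromosome 3, 96645584 to 96664519), a collagen receptor best known from cartilage, had 2.44, 4.03 and 2.85 CPM in CD34hi and 11.8, 12.6 and 10.6 CPM in CD34lo libraries, a log2 fold change of -1.91 (SE 0.21, adjusted p = 0.000186 from edgeR) without overlap. The within-pool log2 ratios of CD34hi to CD34lo were -2.2, -2.09 and -2.22 for *Itga1* and 3.28, 2.07 and 2.87 for *Itga2*.

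*Itga2* and *Itga1* are neighbours on the minus strand of chromosome 13, 26037 bases apart with 0 annotated genes between them, and they differed in opposite directions. Within *Itga1*, the table also lists *Pelo*, an RNA surveillance gene on the same strand, to which 2049 reads were assigned against 2622 for *Itga1* over all libraries. How the counting divided reads between these overlapping genes is not given in the sources used here, so the level of *Itga1* is uncertain to that extent. *Pelo* had 1121 reads in the CD34hi and 928 in the CD34lo libraries, compared to 516 and 2106 for *Itga1*.

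The bases before the start sites of the 4 collagen receptor genes are shown since the genes differed in opposite directions. Each sequence is the 250 bases upstream of the RefSeq start (GRCm38.p6), 5′ to 3′ in the direction of the gene, with CG dinucleotides in capitals. *Itga2* is chr13:114932101-114932350 (minus strand), *Itga11* is chr9:62677605-62677854 (plus strand), *Itga1* is chr13:115101965-115102214 (minus strand) and *Itga10* is chr3:96645334-96645583 (plus strand).
Itga2: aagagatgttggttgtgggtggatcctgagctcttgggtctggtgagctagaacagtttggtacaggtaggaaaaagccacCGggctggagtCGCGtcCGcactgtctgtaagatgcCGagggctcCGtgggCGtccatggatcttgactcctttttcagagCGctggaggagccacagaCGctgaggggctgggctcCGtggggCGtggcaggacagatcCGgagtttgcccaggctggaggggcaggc
Itga11: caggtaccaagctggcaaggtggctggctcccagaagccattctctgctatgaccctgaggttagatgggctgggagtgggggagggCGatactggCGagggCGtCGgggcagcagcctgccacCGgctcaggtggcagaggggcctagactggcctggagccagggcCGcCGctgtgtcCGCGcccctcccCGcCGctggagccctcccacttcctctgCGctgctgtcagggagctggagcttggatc
Itga1: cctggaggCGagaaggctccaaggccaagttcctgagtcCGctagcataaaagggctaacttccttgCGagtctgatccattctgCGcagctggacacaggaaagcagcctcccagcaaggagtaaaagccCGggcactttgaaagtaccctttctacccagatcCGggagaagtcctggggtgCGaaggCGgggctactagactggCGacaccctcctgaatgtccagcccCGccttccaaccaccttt
Itga10: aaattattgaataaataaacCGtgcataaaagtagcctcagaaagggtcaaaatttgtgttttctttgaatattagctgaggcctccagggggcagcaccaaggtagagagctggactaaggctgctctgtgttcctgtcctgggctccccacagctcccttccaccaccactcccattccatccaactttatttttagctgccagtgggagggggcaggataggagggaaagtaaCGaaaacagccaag
*Itga2* and *Itga11* had 12 CG dinucleotides each, *Itga1* had 10 and *Itga10* had 2, compared to a median of 6 over 32851 RefSeq promoters of the same length. The GC content was 60.8%, 68.4%, 57.6% and 48% in the same order, and the median of all promoters was 52.4%. Short motifs were searched on both strands of every window. The TATA box (TATAAA) was found in 12.4% of all promoters. The GC box (GGGCGG) was found in 32.7% and the CCAAT box in 33.8%. The AP-1 motif (TGANTCA) was found in 6.75% and the TEAD motif (GGAATG) in 12.6% of all promoters. The 4 windows shown held 1 match, that of the TEAD motif in *Itga10*, on the strand opposite to the gene and beginning 75 bases before the start. Among the members, 26 genes with 31 promoters were found in the RefSeq table.

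The 3 laminin-binding α subunits were all higher in CD34lo fibroblasts, at low levels. *Itga7* (chromosome 10, 128933813 to 128958286), the laminin receptor of muscle, had 1.52, 1.66 and 0.992 CPM in CD34hi and 7.64, 11.1 and 5.92 CPM in CD34lo libraries, a log2 fold change of -2.57 (SE 0.30, adjusted p = 0.000256 from edgeR). *Itga6*, whose product pairs with β1 or β4 in epithelium, had 1.74, 2.51 and 3.53 CPM in CD34hi and 6.64, 4.89 and 7.14 CPM in CD34lo libraries (-1.26, SE 0.28, adjusted p = 0.00817 from edgeR). *Itga3*, which binds laminins of the basement membrane, had 0.559, 0.938 and 0.992 CPM in CD34hi and 2.91, 2.12 and 2.06 CPM in CD34lo libraries (-1.52, SE 0.32, adjusted p = 0.00613 from edgeR). For none of the 3 did the populations overlap, but *Itga3* (log2 fold change -1.08, adjusted p = 0.087) and *Itga6* (-0.97, adjusted p = 0.0697) no longer passed without pool 1. *Itgb4*, the laminin-specific β chain of hemidesmosomes, had 1.34 to 2.59 CPM in CD34hi and 2.64 to 4.17 CPM in CD34lo libraries (-0.82, SE 0.30). It did not pass the test (adjusted p = 0.0639 from edgeR), but did with a replicate block for the pools (adjusted p = 0.0325). *Itgb4* overlaps *Galk1*, to which 3020 reads were assigned against 637 for *Itgb4*, and the library kit does not mark strand.

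Some pericyte markers moved with the receptors that were higher in CD34lo. Of 5 such markers, *Notch3* (2.98 to 6.06 CPM in CD34hi and 29.6 to 56.1 CPM in CD34lo libraries), *Mcam* and *Rgs5* were higher in CD34lo, *Kcnj8* was higher in CD34hi and *Abcc9* did not pass. Their summed level was 134 to 190 CPM in CD34hi and 141 to 219 CPM in CD34lo libraries, and none was at 0, with *Rgs5* at 0.783 to 2.67 CPM over all 6 libraries. Of 4 muscle markers, *Des* was higher in CD34lo, *Acta1* did not pass, and *Myf5* and *Myog* were at 0 in 3 and 5 of the 6 libraries, with sums of 1.28 to 1.57 CPM in CD34hi and 3.50 to 3.88 CPM in CD34lo. The part of such cells in the values of *Itga7*, *Itga1* and *Itga8* was not tested.

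Among the receptors for RGD ligands, the major α chains did not pass the test and the minor ones did. *Itga5*, the α chain of the classical fibronectin receptor, had 420, 403 and 220 CPM in CD34hi and 439, 333 and 187 CPM in CD34lo libraries. The values overlapped entirely and were lowest in pool 3 in both populations (log2 fold change 0.12, SE 0.33, adjusted p = 0.804 from edgeR). *Itgav*, which pairs with several β chains, had 153 to 170 CPM in CD34hi and 221, 122 and 226 CPM in CD34lo libraries (-0.24, SE 0.22, adjusted p = 0.436 from edgeR). The CD34lo library of pool 2 was the low one, and without it the log2 fold change of *Itgav* was -0.47 (adjusted p = 0.0188 from edgeR).

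*Itga8* (chromosome 2, 12106660 to 12301920), a receptor for nephronectin and fibronectin known from mesenchymal and smooth muscle cells, had 6.06, 4.53 and 5.27 CPM in CD34hi and 69.7, 73.7 and 90.9 CPM in CD34lo libraries. Every CD34lo library was above 69 CPM and every CD34hi library below 7 CPM, which gave the largest change of any member towards CD34lo (log2 fold change -3.88, SE 0.17, adjusted p = 2.13e-06 from edgeR, 14.7-fold). *Itga2b*, the α chain of the fibrinogen receptor of platelets, had 13.8, 14.9 and 17.3 CPM in CD34hi and 33.2, 29.2 and 23.8 CPM in CD34lo libraries (-0.91, SE 0.16, adjusted p = 0.00223 from edgeR). Of 4 platelet markers, *Pf4* and *Ppbp* were at or near 0, at no more than 0.129 CPM in any library. *Gp9* (0.129 to 0.662 CPM over all libraries) and *Gp1bb* (2.86 to 5.79 CPM) did not pass the test. The 4 markers summed to 3.64 to 4.76 CPM in CD34hi and 3.12 to 6.20 CPM in CD34lo libraries. The part of platelets in the value of *Itga2b* was not tested.

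**Figure D2:**
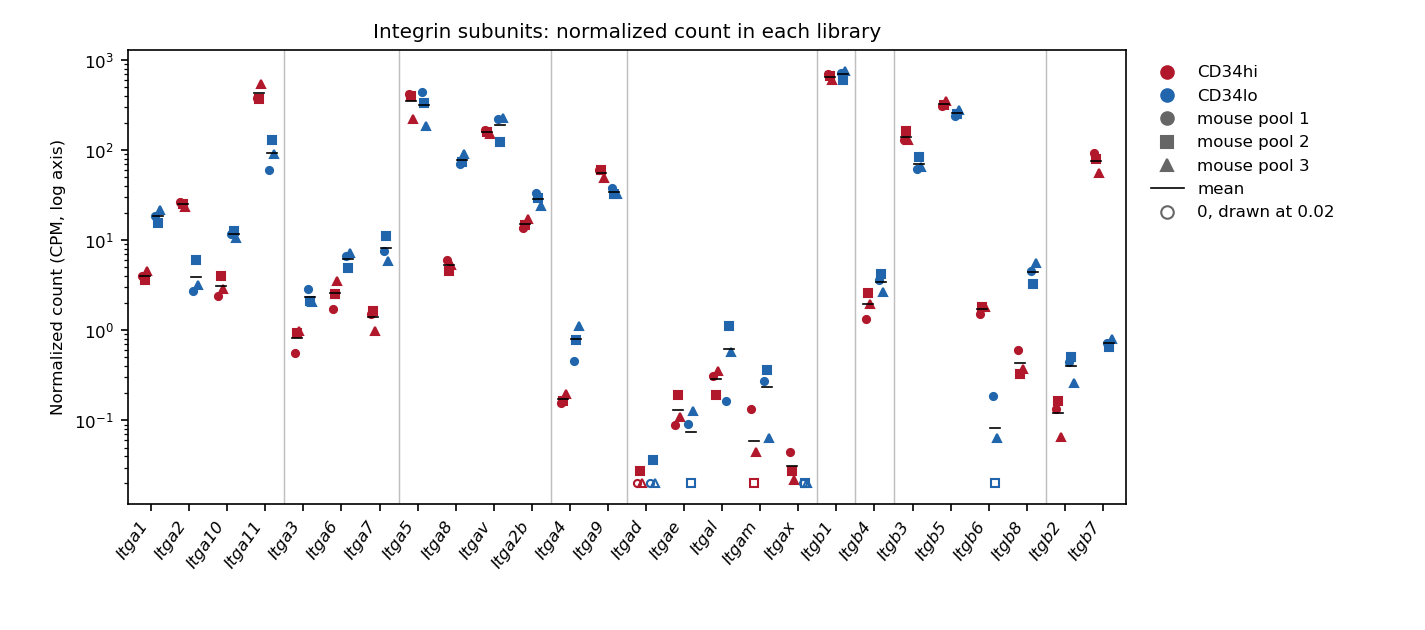
Normalized count (CPM, log axis) of the 26 integrin subunits in each of the 6 libraries. Color gives the population, marker shape the mouse pool and black lines the mean, and grey lines divide the classes. For Itgb7 and Itga8 the CD34hi and CD34lo points are far apart, while the points for Itgb1, Itga5 and Itgav overlap.

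The β chains that join αv to form RGD receptors also divided. *Itgb3*, the β chain of the vitronectin receptor, had 130, 164 and 130 CPM in CD34hi and 62.5, 84.8 and 65.6 CPM in CD34lo libraries (log2 fold change 1.00, SE 0.16, adjusted p = 0.00136 from edgeR), and within pools its log2 ratio was 1.06, 0.96 and 0.98. *Itgb5*, a further partner of αv, had 309, 321 and 350 CPM in CD34hi and 242, 253 and 277 CPM in CD34lo libraries. Its populations did not overlap, but the difference of 0.35 (SE 0.12) did not pass the test (adjusted p = 0.0518 from edgeR), whereas it did with the replicate block (adjusted p = 0.0409).

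*Itgb8* and *Itgb6*, whose αv heterodimers are known for releasing TGF-β from its latent form, were expressed at low levels and in opposite populations. *Itgb8* (chromosome 12, 119162803 to 119238276) had 0.604, 0.331 and 0.375 CPM in CD34hi and 4.61, 3.31 and 5.53 CPM in CD34lo libraries, a log2 fold change of -3.34 (SE 0.33, adjusted p = 0.000102 from edgeR). *Itgb6* (chromosome 2, 60598292 to 60722603), known as an epithelial gene, had 1.52, 1.79 and 1.81 CPM in CD34hi and 0.184, 0 and 0.0643 CPM in CD34lo libraries (4.07, SE 0.62, adjusted p = 0.00113 from edgeR). The CD34lo value of *Itgb6* rested on 12 reads in all 3 libraries together, against 215 in CD34hi, so the size of its fold change is poorly fixed. *Itgb6* passed the filter on low counts only through the CD34hi libraries, so its test could hardly have come out otherwise. Of 5 epithelial markers, 0 passed the test in either direction, and their sum was 30.7 to 36.7 CPM in CD34hi and 25.9 to 36.6 CPM in CD34lo libraries. The keratinocyte markers *Krtdap* and *Krt10* were both higher in CD34hi, with sums of 14.3 to 19.9 and 3.60 to 7.12 CPM, and their part in the value of *Itgb6* was not tested.

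The largest difference of any member was that of *Itgb7* (chromosome 15, 102215995 to 102231935), a β chain known from lymphocytes, where it pairs with α4 or αE in homing to the gut. It had 93.2, 80.9 and 56.5 CPM in CD34hi and 0.719, 0.647 and 0.804 CPM in CD34lo libraries. The populations were separated by a wide gap in every pool, with within-pool log2 ratios of 6.92, 6.86 and 6.05 and a log2 fold change of 6.72 (SE 0.25, adjusted p = 1.45e-06 from edgeR, 106-fold). In the CD34hi libraries neither of its known partners was counted at a comparable level. *Itga4* had 0.157, 0.166 and 0.199 CPM in CD34hi and 0.461, 0.791 and 1.13 CPM in CD34lo libraries, and *Itgae* had at most 0.193 CPM in any library and was not tested.

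*Itga4* was higher in CD34lo (log2 fold change -2.15, SE 0.49, adjusted p = 0.00867 from edgeR), a call that rested on 104 reads in total and was lost without pool 2 (-2.11, adjusted p = 0.0629) or pool 3 (-1.91, adjusted p = 0.0532). *Itga4* passed the filter on low counts only through the CD34lo libraries, and it also overlaps *Cerkl* (44 reads). *Itga9*, the related receptor for tenascin and other matrix proteins, was well expressed, with 60.7, 59.6 and 49.3 CPM in CD34hi and 38.3, 32.8 and 32.6 CPM in CD34lo libraries (0.71, SE 0.13, adjusted p = 0.00276 from edgeR) and no overlap.

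The other leukocyte integrins were at or near the limit of detection, and *Itgb2* passed the filter on low counts only through the CD34lo libraries. *Itgb2*, the common β chain of leukocytes, had 0.0662 to 0.166 CPM in CD34hi and 0.257 to 0.504 CPM in CD34lo libraries (log2 fold change -1.72, SE 0.55, adjusted p = 0.0381 from edgeR) on 61 reads in total. It no longer passed in 8 of the 14 alternatives that could test it, among them those without the CD34hi library of pool 1 (adjusted p = 0.114), pool 2 (0.0848) or pool 3 (0.125), the CD34lo library of pool 2 (0.0943), or both libraries of pool 2 (0.133) or pool 3 (0.0701). *Itgal* had 0.166 to 1.12 CPM over all libraries and did not pass (adjusted p = 0.266 from edgeR). *Itgam* had 8 reads in the CD34hi and 27 in the CD34lo libraries, *Itgax* had 4 and 0, and *Itgad* had 1 and 1.

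Of 6 leukocyte markers 4 were tested, and *Cd3e* was higher in CD34hi and *Cd79a* in CD34lo. *Ptprc*, which encodes the CD45 used to deplete leukocytes, was at 0.0221 to 0.36 CPM, and *Cd52* was at 0 in 4 of the 6 libraries. The markers summed to 15.0 to 18.02 CPM in CD34hi and 4.08 to 8.99 CPM in CD34lo libraries, with *Cd3e* the most abundant (13.9 to 16.0 CPM in CD34hi and 1.67 to 5.43 CPM in CD34lo, log2 fold change 1.98, adjusted p = 0.00228 from edgeR). Of 7 macrophage markers, 4 of which were tested, only *Fcgr2b* passed, with 0.193 to 1.10 CPM in CD34hi and 23.6 to 43.4 CPM in CD34lo libraries, and *C1qa* and *Adgre1* stayed at or under 1.61 and 0.0369 CPM. The 7 summed to 3.44 to 3.57 CPM in CD34hi and 28.6 to 49.7 CPM in CD34lo libraries. The part of leukocytes in the values of *Itgb7*, *Itgb2* and *Itga4* was not tested.

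*Itgb1*, the shared β chain that joins the collagen, laminin and several RGD α subunits, had 693, 668 and 605 CPM in CD34hi and 721, 608 and 758 CPM in CD34lo libraries. The values overlapped, with a log2 fold change of -0.09 (SE 0.14, adjusted p = 0.671 from edgeR), and within pools the sign varied (-0.06, 0.14 and -0.33).

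To compare levels between genes, counts were divided by gene length (RPKM, CPM per kilobase of the table's length). On this scale the most abundant subunit was *Itgb1*, with 156 ± 10.9 RPKM (SD, n = 3) in CD34hi and 166 ± 18.6 in CD34lo fibroblasts. *Itgb5* was at 99.6 ± 6.40 and 78.4 ± 5.43 RPKM, a range that overlapped those of *Itga11* and *Itga5* in CD34hi and that of *Itga5* in CD34lo. Among α subunits, *Itga11* was at 86.9 ± 19.2 RPKM and *Itga5* at 79.6 ± 25.3 RPKM in CD34hi, a difference within their spread, whereas in CD34lo *Itga5* was at 73.1 ± 29.0 RPKM and *Itga11* at 18.9 ± 6.99 RPKM without overlap. *Itgav* was at 22.8 ± 1.20 RPKM in CD34hi and 26.9 ± 8.28 RPKM in CD34lo, the latter range overlapping that of *Itga11*. *Itga8* reached 13.5 ± 1.95 RPKM in CD34lo and 0.914 ± 0.133 RPKM in CD34hi.

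The collagen-binding class made up 38.5%, 38.8% and 57.3% of the summed α-subunit RPKM in the CD34hi libraries of pools 1, 2 and 3, and 10.1%, 20.8% and 19.0% in the CD34lo libraries. The RGD class made up 57.1%, 56.7% and 38.6% in CD34hi and 84.6%, 73.2% and 74.5% in CD34lo libraries. In neither class did the populations overlap, and the shares of one class are tied to those of the other since they add up to 100%. *Itga11* alone took 35.1%, 35.3% and 53.9% of the summed α-subunit RPKM in CD34hi libraries and 6.70%, 16.7% and 14.1% in CD34lo libraries.

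Within the collagen-binding class, *Itga11* made up 92.1% ± 1.77 (SD, n = 3) of the RPKM in CD34hi and 73.6% ± 6.73 in CD34lo fibroblasts. The share of *Itga1* in this class was 0.727% ± 0.0671 in CD34hi and 13.1% ± 4.70 in CD34lo, and that of *Itga10* was 0.677% ± 0.259 and 9.64% ± 2.77. The laminin class was a small share of all α subunits, at 0.540% ± 0.114 in CD34hi and 2.59% ± 0.299 in CD34lo. The share of *Itga9* and *Itga4* together overlapped between the populations (3.78% ± 0.288 and 3.21% ± 0.348). Among β subunits, *Itgb1* took 50.4% ± 1.60 in CD34hi and 64.0% ± 2.94 in CD34lo, and *Itgb7* took 9.23% ± 1.93 and 0.104% ± 0.00324. The RGD class took 40.3% ± 3.50 and 35.7% ± 2.89 with overlap. These shares are tied to each other as well, and *Itgb1* itself did not pass the test (156 ± 10.9 RPKM in CD34hi and 166 ± 18.6 in CD34lo). The summed RPKM itself was higher in CD34hi for α subunits (202 to 219 against 131 to 181) and for β subunits (295 to 318 against 239 to 279).

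**Figure D3:**
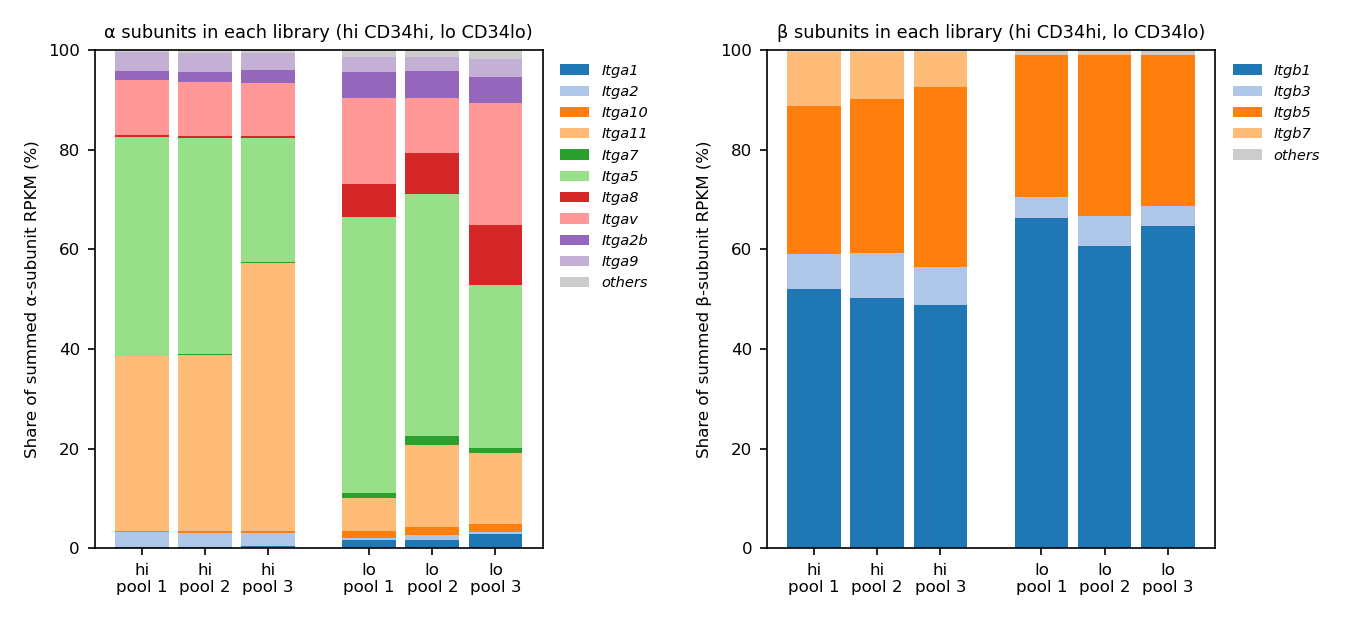
Share (%) of each gene in the summed RPKM of the α subunits (left) and β subunits (right), per library. Bars are single libraries of the 3 pools, and subunits under 1.5% in every library are pooled as others. Itga11 takes 35.1% to 53.9% of the α bars in CD34hi and 6.70% to 16.7% in CD34lo, and a visible Itgb7 segment is present in the CD34hi bars only.

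Of the 13 adaptors that connect the β tail to actin, 5 were called, 7 did not pass and 1 was not tested. The called adaptors were 41.7% of the 12 tested, against 35.6% of all tested genes. *Tln1*, the main talin outside muscle and brain, had 206 to 242 CPM in CD34hi and 208 to 227 CPM in CD34lo libraries (log2 fold change 0.05, SE 0.12). Its paralog *Tln2* (chromosome 9, 67217085 to 67559703) had 22.1, 19.1 and 17.9 CPM in CD34hi and 160, 80.5 and 139 CPM in CD34lo libraries. All CD34lo libraries lay above all CD34hi libraries, with that of pool 2 the lowest of the 3 (-2.68, SE 0.24, adjusted p = 6.14e-05 from edgeR, 6.42-fold). On the per-length scale *Tln1* was at 26.7 ± 2.30 RPKM in CD34hi and 25.7 ± 1.22 in CD34lo, and *Tln2* was at 1.62 ± 0.179 and 10.4 ± 3.39 RPKM, so *Tln2* stayed below *Tln1* in both populations.

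*Vcl*, encoding vinculin, which strengthens the link between talin and actin, was also higher in CD34lo, with 135, 133 and 107 CPM in CD34hi and 233, 204 and 180 CPM in CD34lo libraries (-0.72, SE 0.15, adjusted p = 0.00503 from edgeR). Among kindlins, *Fermt2* had 173 to 238 CPM in CD34hi and 220 to 290 CPM in CD34lo libraries (-0.22, SE 0.16), *Fermt3*, the hematopoietic kindlin, was near 1 CPM in all libraries, and *Fermt1*, the epithelial kindlin, had at most 0.335 CPM and was not tested. *Fermt3* overlaps *Trpt1*, which had 569 reads against 248.

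Of the 4 genes measured here for the complex of ILK, PINCH and parvin, *Lims2* alone passed the test. *Lims2*, encoding PINCH2, had 42.3, 50.0 and 64.1 CPM in CD34hi and 4.59, 7.44 and 4.73 CPM in CD34lo libraries. The lowest CD34hi value was several times the highest CD34lo value (log2 fold change 3.23, SE 0.24, adjusted p = 2.06e-05 from edgeR, 9.39-fold). Its paralog *Lims1*, encoding PINCH1, had 68.7 to 76.3 CPM in CD34hi and 60.9 to 78.0 CPM in CD34lo libraries, with overlap (0.10, SE 0.12, adjusted p = 0.562 from edgeR). Per length, *Lims2* was at 30.9 ± 6.54 RPKM and *Lims1* at 14.7 ± 0.770 RPKM in CD34hi, with no overlap, whereas in CD34lo *Lims2* was at 3.31 ± 0.954 RPKM and *Lims1* at 13.7 ± 1.87 RPKM. The order of the PINCH paralogs was therefore inverted between the populations on the per-length scale only. In CPM, *Lims1* was above *Lims2* in every library of both populations. The order in CD34hi thus depends on the gene lengths used (1688 bases for *Lims2* and 4941 bases for *Lims1*).

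*Ilk*, the pseudokinase at the center of this complex (92.7 to 113 CPM over all libraries), and *Parva*, α-parvin (176 to 201 CPM), had log2 fold changes of -0.05 (SE 0.12) and -0.08 (SE 0.11). *Ilk* overlaps *Rrp8* and *Taf10*, to which 3208 and 2815 reads were assigned against 24741 for *Ilk*. *Ptk2*, encoding focal adhesion kinase (FAK), had 63.9 to 79.2 CPM over all libraries and a log2 fold change of -0.01 (SE 0.12, adjusted p = 0.972 from edgeR). By contrast, the scaffold *Pxn* (paxillin) had 205, 200 and 200 CPM in CD34hi and 131, 112 and 94.3 CPM in CD34lo libraries (0.84, SE 0.14, adjusted p = 0.0016 from edgeR). *Zyx* (zyxin), an actin regulator that is recruited to adhesions under tension, had 305, 324 and 373 CPM in CD34hi and 171, 103 and 114 CPM in CD34lo libraries (1.36, SE 0.20, adjusted p = 0.000853 from edgeR). Neither gene overlapped between the populations. The CD34lo library of pool 1 was the highest of its population for both.

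**Figure D4:**
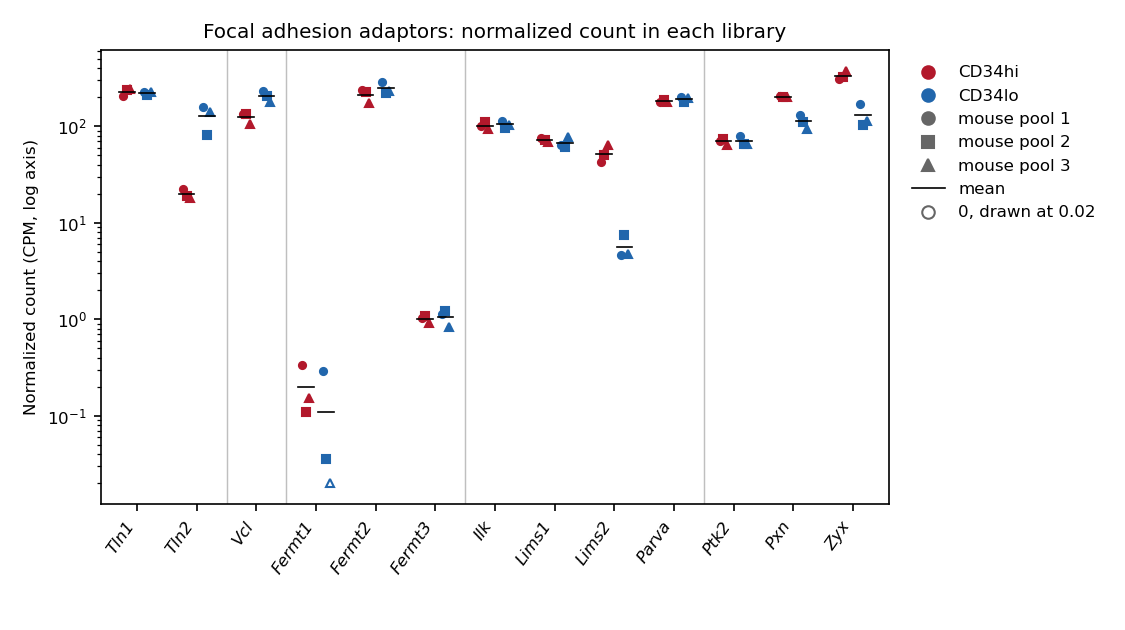
Normalized count (CPM, log axis) of the 13 focal adhesion adaptors in each of the 6 libraries. Color gives the population, marker shape the mouse pool and black lines the mean. Tln2 and Lims2 are separated in opposite directions, whereas their paralogs Tln1 and Lims1 overlap.

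Further genes of the focal adhesion were divided between both populations. Of 58 such genes 57 were tested, and 19 were higher in CD34hi, 18 were higher in CD34lo and 20 did not pass, compared to 16.9% and 18.7% of all tested genes that were higher in CD34hi and in CD34lo. Among the largest changes towards CD34hi, for genes of at least 3 mean log2 CPM, were those of *Ptk2b*, a kinase related to FAK (20.1, 21.3 and 28.1 CPM in CD34hi and 3.56, 4.86 and 4.53 CPM in CD34lo libraries, log2 fold change 2.43, SE 0.19) and of the Src family kinase *Fyn* (1.38, SE 0.12). At the same minimum level, the largest towards CD34lo were those of *Fhl2*, a LIM domain protein (4.07, 2.57 and 3.53 CPM in CD34hi and 33.1, 35.2 and 30.8 CPM in CD34lo libraries, -3.28, SE 0.18), of *Tns3*, a tensin, which links integrin tails to actin (-2.59, SE 0.15), and of *Actn1*, α-actinin, an actin crosslinker (-2.10, SE 0.33). The adjusted p-values of these 5 genes ranged from 6.5e-06 to 0.00131 (edgeR).

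Of the listed genes for integrin ligands, more were higher in CD34lo than in CD34hi. The list was chosen with earlier results of these data known, so the counts describe these genes only. Of 35 such genes 33 were tested, of which 6 were higher in CD34hi, 18 were higher in CD34lo and 9 did not pass (16.9% and 18.7% of all tested genes were higher in CD34hi and in CD34lo). Collagens accounted for 0 higher in CD34hi and 5 higher in CD34lo of 7, laminins for 4 and 3 of 10, and RGD ligands for 2 and 6 of 10. The counts were 0 and 3 of 4 for α4 and α9 ligands, and 0 and 1 of 4 for leukocyte integrin ligands. Classes shared no genes. The α4 and α9 class held *Vcam1*, *Madcam1*, *Svep1* and *Emilin1*. *Fn1* and *Tnc* were counted as RGD ligands only, so its count leaves out ligands that classes share, such as tenascin for *Itga9*. *Fbn1*, fibrillin-1 of microfibrils (2.18, SE 0.19), and *Fn1*, fibronectin (1.29, SE 0.19), were among the genes of at least 3 mean log2 CPM with the largest log2 fold changes towards CD34hi. *Fn1*, the ligand of the receptor of *Itga5*, had 16110, 14720 and 17910 CPM in CD34hi and 6586, 5591 and 7813 CPM in CD34lo libraries. At a mean log2 CPM of at least 3, the largest changes towards CD34lo were those of *Tnc*, tenascin C (-4.26, SE 0.41), *Vtn*, vitronectin (-2.60, SE 0.19), and *Col4a2*, a chain of collagen IV (-2.43, SE 0.17). *Col4a2* had 422, 401 and 563 CPM in CD34hi and 2531, 2413 and 2525 CPM in CD34lo libraries. The adjusted p-values of these 5 genes ranged from 1.82e-05 to 0.00104 (edgeR).

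Endothelial markers differed in both directions beside the receptors. *Kdr* and *Tek* were higher in CD34hi (*Tek* at 473 to 647 CPM in CD34hi and 22.0 to 41.9 CPM in CD34lo libraries), *Pecam1* and *Cdh5* were higher in CD34lo, and *Vwf* did not pass (log2 fold change -1.20, adjusted p = 0.0713 from edgeR) but was higher in CD34lo with the replicate block (adjusted p = 0.00545). *Pecam1*, which encodes the depleted antigen CD31, was at 3.22 to 10.4 CPM in CD34hi and 12.1 to 18.4 CPM in CD34lo libraries. The sums over the 5 markers were 535 to 697 CPM in CD34hi and 55.2 to 97.1 CPM in CD34lo libraries, and none of the 5 was at 0. Their part in the integrin values was not tested.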

How the data were processed

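FACS-sorted CD34hi and CD34lo fibroblasts (3 libraries each) were profiled by the authors with TruSeq RNA v2 libraries on a NextSeq sequencer. The authors aligned reads to GRCm38/mm10 and deposited whole-number counts per gene from Rsubread 2.2.6, without normalization. The annotation and the counting of reads on overlapping genes are not given in the sources used here. Gene length and coordinates are those of the deposited table, and 25275 of 27179 genes were given a symbol from a reference gene table.

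The analysis was performed with edgeR 4.0.16 under R 4.3.3. Genes were filtered by population (filterByExpr, 10 counts at the median library size, or 0.243 CPM), libraries were scaled by TMM, and CD34hi was tested against CD34lo by quasi-likelihood without a block. Benjamini-Hochberg adjustment covered all 15219 tested genes, with a threshold of 0.05. The SE of a log2 fold change is its size over the square root of the test's F. Log2 CPM used a prior count of 2, and RPKM is CPM per 1000 bases. The common coefficient of variation between libraries was 19.7%. Replicate libraries differed by more than sampling noise (smallest chi-square per degree of freedom 23.9). The script was tested on simulated data.

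The labels give each mammary gland sample a number. Libraries of both populations with the same number were taken to come from the same mouse pool. Deviations of same-numbered libraries from the population means had r = 0.279, 0.0844 and 0.243 across genes. These were all positive, but the main test had no block. The replicate block was an alternative. Others were limma-voom (limma 3.58.1) with and without the block, DESeq2 1.42.0, and RLE and upper-quartile scaling. Further ones were other filters, thinned counts, other thresholds and leaving out each library or pool. Promoter sequences were taken from RefSeq (GRCm38.p6). All 39 members were named, and of the further focal adhesion and ligand genes the 3 with the largest change in each direction that passed the test at a mean log2 CPM of 3 or more. Some genes that this rule names are not reported here. *Cd34* was given as a check of the labels. Further genes and markers were named where a value bore on a member. Members and lists were chosen with earlier results of these data known.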

Additional observations from a re-analysis of the deposited data

How the results depend on the processing

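Over 604 comparisons of the 34 tested members with up to 18 alternatives each, 566 kept their direction and their side of the threshold, 12 kept the direction but no longer passed, 9 newly passed and 17 changed sign, the last all in members that did not pass. The number of members higher in CD34hi was 8 to 10 under other tests, scalings, filters and left-out libraries, and 6 where a log2 fold change of 1 or more was required. The number higher in CD34lo was 9 to 13. With a replicate block for the pools, 10 members were higher in CD34hi and 13 in CD34lo, the additions being *Itgb5* and *Itgb4*, and no other member changed its call. The number of all genes called fell from 5411 to 3444 at an adjusted p-value under 0.01 and to 2986 where a log2 fold change of 1 or more was required, and ranged from 3468 (without pool 1) to 5236 when libraries were left out. Fewer samples or stricter thresholds are the construction of these alternatives. *Ptk2* was at 0.0205 on the log2 scale without a filter and at 0.0051 with thinned counts. Leaving out libraries gave -0.0906 to 0.121 for *Ptk2*, -0.15 to 0.45 for *Itga5*, -0.160 to 0.0384 for *Ilk*, -0.211 to 0.0258 for *Fermt3*, -0.0092 to 0.17 for *Tln1* and -0.184 to 0.0376 for *Itgb1*. Upper-quartile scaling moved the median of all genes from -0.0064 to -0.059 on the log2 scale and no member across 0 or the threshold.

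Depth limited the statements on *Itga4*, *Itgb2*, *Itgal* and the 5 untested members, which had few counts in both populations. It also limited those on *Itgb6*, which had few in CD34lo. Where a pool was left out, 2 libraries per population remained.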
